A study of Rattus norvegicus with 9 samples.

Results

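Long non-coding RNA (lncRNA) genes with many reads in the frontal cortex of adult rats are described here. The members, chosen by their mean level in these same counts, were the genes that the deposited count table types as lncRNA, leaving out symbols that start with RT1-, whose mean over the 9 rats was at least 8 CPM (the count of a gene as a share of all gene counts of that rat, in parts per 1000000). The rule kept 207 of 5897 lncRNA genes in a table of 37209 genes, and all 207 entered the test with 16837 genes in all. Because the rule used the counts themselves, the level of a member is a description and no result. Every group mean was at least 8 CPM for 175 members, while the other 32 had a group mean under 8 CPM, 20 of them in Control, 18 in MS and 2 in MS+EA, and so passed through the groups where they were higher.

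The study asked how early-life stress and later electroacupuncture (EA) affect the frontal cortex transcriptome. All 9 animals were male Wistar rats of 14 weeks, 3 in each group. Control rats (A1, A2, A6) came from litters left undisturbed until weaning, and maternal separation (MS) rats, numbered B3, B4 and B6, from litters whose mothers were taken away for 4 h a day from postnatal day 1 to 21. MS+EA rats (C3, C10, C16) had the same separation and then, from postnatal day 61 to 81, needle stimulation with current at the scalp and forehead points GV20 and GV29 every other day under anaesthesia, which by the labels Control and MS rats received too. Sham-stimulated rats were not analysed here, the labels do not say which rats shared a litter, and MS+EA differs from Control by separation and stimulation together. The p-values measure the spread between these rats.

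An lncRNA is transcribed, spliced and often polyadenylated like a messenger RNA but carries no long reading frame. Many stay in the nucleus, where they hold proteins in place or guide chromatin factors, and others are cytoplasmic, bind microRNAs or are processed into small RNAs. Brain expresses a wide range of them, often in few cell types. In pieces of tissue, fewer cells of a type and less RNA per cell cannot be told apart.

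Most members were known only by a placeholder. Their table symbol was LOC with a gene number for 200 of 207, and the others were Miat, Gas5, Vof16, Fam19a1, Tmem80, RGD1564124 and RGD1561327. Set against the current RefSeq gene table (assembly GRCr8), 141 members (68.1%) had no entry any more, 55 (26.6%) were listed as lncRNA and 11 (5.31%) as protein coding. The 66 with an entry were found by gene number for 61, by symbol for 4 and by an older symbol for 1. Among the entries now listed as protein coding were Nkain2 (LOC102551716), whose product interacts with the sodium pump, the imprinted zinc-finger gene Peg3 (LOC103691034) and Fndc4 (LOC100910821), a secreted fibronectin-domain protein, so reads of coding transcripts may be among the members' counts.

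Mean levels of the members ran from 8.04 to 1357 CPM, with a median of 16.6 CPM. Only 9 members reached 100 CPM and 128 lay under 20 CPM, and the lowest count of any member in any rat was 31. The genes just inside the rule were LOC103691784 at 8.20, LOC103693507 at 8.15 and LOC102550935 at 8.04 CPM, and those just outside were LOC100912557 at 7.94, LOC103693073 at 7.92 and LOC102554685 at 7.91 CPM. CPM is not divided by transcript length, so levels of different members were not ranked.

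Reads on the members made up a higher share of all gene counts in every MS+EA rat than in any other rat. The share was 0.577% in A1, 0.648% in A2 and 0.652% in A6, a Control mean of 0.626% ± 0.0422 (SD, n = 3). It was 0.696% in B3, 0.621% in B4 and 0.664% in B6, an MS mean of 0.660% ± 0.0378. The MS+EA rats stood at 0.786% (C3), 0.835% (C10) and 0.717% (C16), with a mean of 0.780% ± 0.0596. Control and MS overlapped, and the lowest MS+EA rat lay above the highest MS rat. Genes typed ncRNA took 0.275% to 0.306% of all gene counts in MS+EA, against 0.233% to 0.264% in Control and 0.244% to 0.269% in MS. The other lncRNA genes took 0.286% ± 0.0237 in MS+EA, against 0.245% ± 0.0205 in Control and 0.243% ± 0.0215 in MS. Their range of 0.259% to 0.300% in MS+EA overlapped that of MS, 0.230% to 0.268%, and lay above that of Control, 0.221% to 0.257%. As a share of lncRNA reads alone the members held 71.9% ± 0.348 in Control, 73.1% ± 1.04 in MS and 73.1% ± 0.679 in MS+EA, so that MS and MS+EA overlapped on that scale. Total counts were lower in MS+EA (12479905 to 14913736) than in Control (16153292 to 19007907) and MS (16106381 to 17243320), and the part of this difference in the shares was not tested.

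Within each group 1 rat was low for most members. A1 was the lowest Control rat for 126 of 207 members (60.9%, against 34.7% of all genes tested), B4 the lowest MS rat for 119 (57.5%, against 32.1%) and C16 the lowest MS+EA rat for 120 (58.0%, against 32.6%). The median member deviated from its group mean by -0.11 in A1, -0.10 in B4 and -0.11 in C16 on the log2 scale. The high rats were B3 (0.11) and C10 (0.11), while the median over all genes tested stayed within 0.0072 of 0 in every rat.

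**Figure D1:**
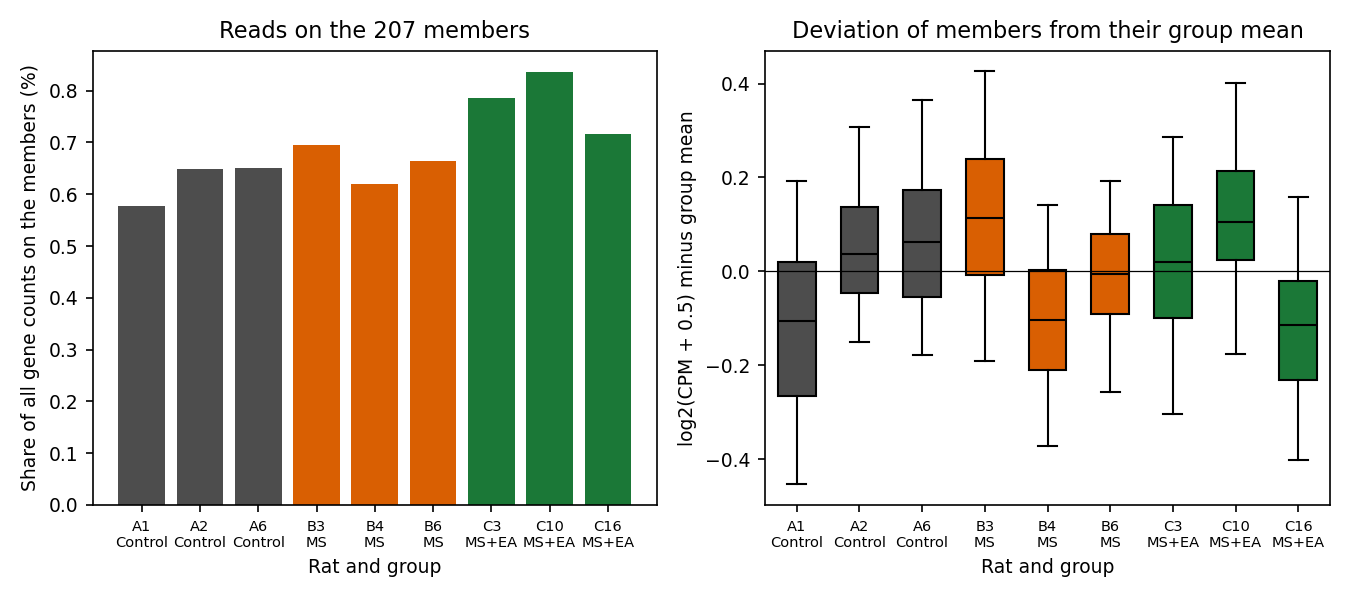
Left, percentage of all gene counts that fell on the 207 members in each rat, coloured by group; right, the members' log2(CPM + 0.5) minus their own group mean (box, quartiles; whiskers, 5th to 95th percentile; line, median). The 3 MS+EA bars lie between 0.717% and 0.835%, above all others, and the boxes of A1, B4 and C16 sit below 0.

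The members differed most between MS+EA and Control, where 30 of 207 passed an adjusted p under 0.05 with a fold change above 1.5, and all 30 were higher in MS+EA (edgeR's quasi-likelihood test, Benjamini-Hochberg over 16837 genes). Of the 30, 24 had every group mean at 8 CPM or more. The other 6, LOC103691363, LOC103690870, LOC103691405, LOC102552946, LOC103691190 and LOC103693507, had a Control mean under 8 CPM and were members through the groups where they were higher, so their difference supports nothing. The background was 1.37% of all genes tested in either direction (230 genes) and 1.25% in the higher direction (210 genes). The 30 log2 fold changes ran from 0.59 to 1.18 with a median of 0.77, which is 1.51 to 2.26 fold, and adjusted p ran from 0.00299 to 0.0497. At an adjusted p under 0.05 with any fold change the count was 40 members, beside 5.4% of all genes tested. Among the 10 members added by this, 8 were higher and 2 lower. The other lncRNA genes tested had 18 calls among 1095 (1.64%), and messenger RNA genes within the members' range of CPM had 112 among 9958 (1.125%).

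The number of calls depended on single rats. Without A1 the fit called 6 members, without A2 15 and without A6 20, and without C3, C10 or C16 it called 16, 9 and 27. Leaving out B6, an MS rat that enters this contrast only through the shared spread, gave 25. All 30 stayed above 0 in each of the 9 fits with 1 rat left out. This was given in advance and is no support, since in all 30 every MS+EA rat lay above every Control rat. Without A1 their log2 fold changes ran from 0.56 to 1.11 with a median of 0.66. A1 was the lowest Control rat for 28 of the 30 and the lowest of all 9 rats for 23. Counts by rat in the whole table moved too: 71 genes were called without A1 and 121 without C10. For the other rats the whole-table count is not set beside the members here. Whether the members moved more than all genes was not tested.

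Over all members the shift was broader than the calls. A total of 69 members (33.3%) had an unadjusted p under 0.05 and were higher in MS+EA than in Control, against 11.9% of all genes tested, and 6 (2.90%) were lower, against 10.6%. The 3 rats of MS+EA lay wholly above the 3 Control rats for 67 members (32.4%; 13% of all genes tested) and wholly below for 8 (3.86%; 12.9% of all genes). The median log2 fold change was 0.27 over the members and 0.0055 over all genes tested. It was 0.17 over the other lncRNA genes, 0.21 over 596 genes typed ncRNA and -0.027 over messenger RNA genes of the members' range of CPM. The member counts and median include the 32 members with a group mean under 8 CPM, of which 20 had it in Control and 2 in MS+EA. These values are therefore not free of the selection, and they were not worked out for the 175 other members alone. Members without a current entry had a median of 0.33 and 27 calls among 141 (19.1%), members listed as lncRNA a median of 0.12 and 3 calls among 55 (5.45%), and the 11 listed as protein coding a median of 0.051 and no call.

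**Figure D2:**
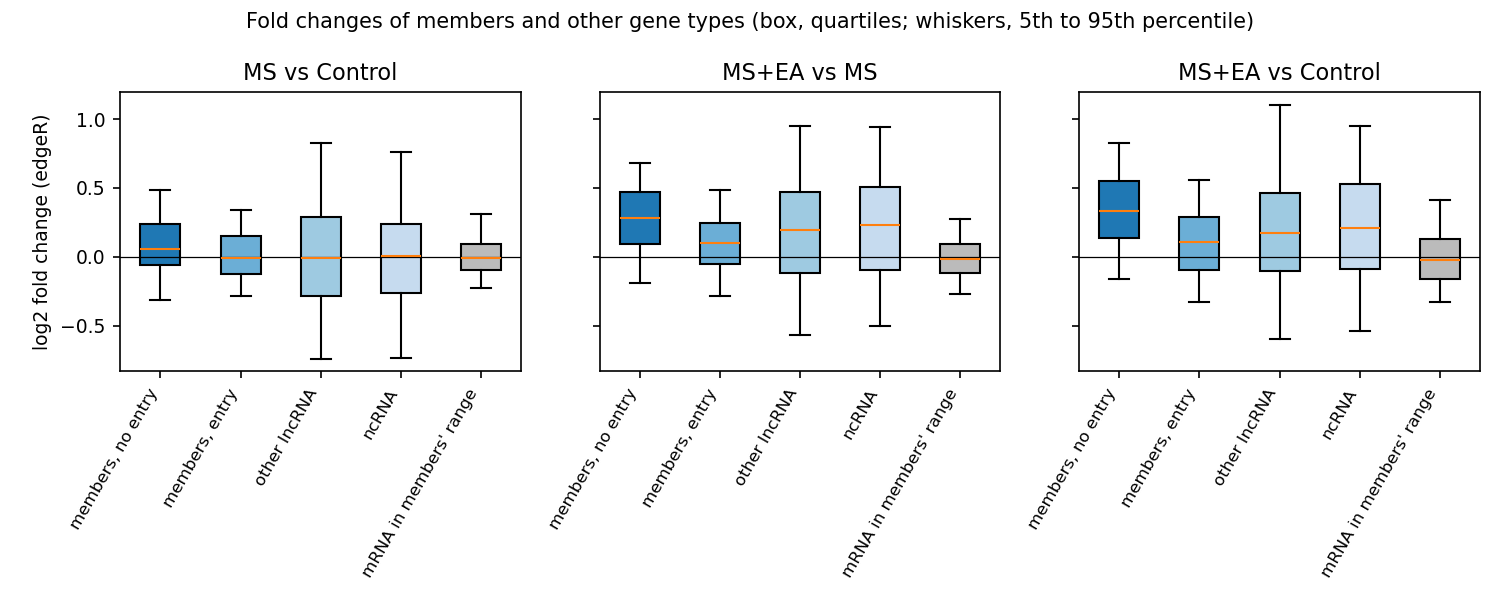
Log2 fold changes from edgeR in the 3 contrasts for members without a current RefSeq entry, members with one, other lncRNA genes, ncRNA genes and messenger RNA genes within the members' range of CPM (box, quartiles; whiskers, 5th to 95th percentile). In MS+EA against Control the median of members without an entry is 0.33 and that of the messenger RNA genes -0.027.

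**Figure D3:**
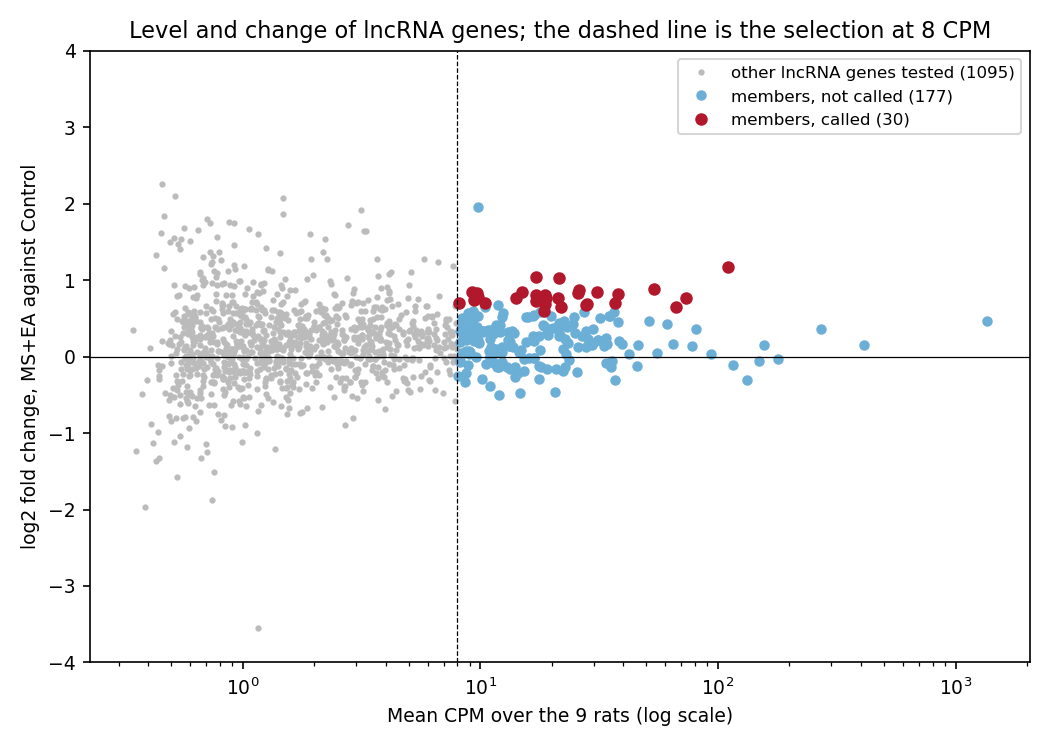
Mean CPM over the 9 rats (log axis) against the log2 fold change of MS+EA against Control for every lncRNA gene tested; the dashed line is the selection at 8 CPM. All 30 called members lie between 0.59 and 1.18, and the uncalled member near 1.95 is LOC102551932.

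LOC102547183, LOC102547415, LOC103693867, LOC102546835 and LOC103691125 were called in the full fit and in each of the 9 fits with 1 rat left out. No function is known for them from the table, and only LOC102546835 has a current entry, as lncRNA. LOC102547183 had 61.9, 58.4 and 84.3 CPM in the Control rats A1, A2 and A6, 107, 100.8 and 116 in the MS animals in the order B3, B4, B6, and 159, 176 and 127 in the order C3, C10, C16 in MS+EA. The 3 groups did not overlap, with MS between the others. Its log2 fold change in MS+EA against Control was 1.18 (SE 0.140, adjusted p = 0.00299, edgeR), the highest of the 30 called members.

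LOC102547415 stood at 13.1, 14.6 and 15.98 CPM in Control, 23.4, 17.1 and 19.1 in MS and 31.1, 31.8 and 25.6 in MS+EA. LOC103693867 stood at 13.0, 13.0 and 14.5 CPM in Control, 19.2, 18.1 and 19.2 in MS and 26.5, 24.4 and 19.8 in MS+EA. In both genes the groups were separate, with Control lowest and MS+EA highest. The log2 fold changes of MS+EA against Control were 1.02 (SE 0.138, adjusted p = 0.00480) for LOC102547415 and 0.81 (SE 0.121, adjusted p = 0.00711) for LOC103693867.

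For LOC102546835 the Control rats had 31.0, 39.9 and 44.6 CPM, the MS rats 60.5, 44.5 and 50.6 and the MS+EA rats 73.8, 77.3 and 62.6. LOC103691125 had 21.8, 28.9 and 34.5 CPM in Control, 38.5, 32.4 and 37.0 in MS and 52.7, 52.5 and 44.3 in MS+EA. Control and MS overlapped in both, and MS+EA was above all other rats. The log2 fold changes against Control were 0.89 (SE 0.140, adjusted p = 0.00798) and 0.81 (SE 0.143, adjusted p = 0.0115).

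A second kind of called member was level between Control and MS. LOC102549590 had 21.1, 23.3 and 26.4 CPM in Control, 27.3, 18.8 and 22.0 in MS and 42.9, 37.9 and 33.1 in MS+EA, so that only MS+EA stood apart. LOC103691333 had 8.03, 8.72 and 9.39 CPM in Control, 9.62, 8.88 and 7.09 in MS and 16.2, 14.1 and 12.2 in MS+EA. LOC103693507 had 5.99, 6.52 and 7.59 CPM in Control, 7.46, 6.82 and 6.01 in MS and 10.9, 11.5 and 10.3 in MS+EA, so that every Control and MS rat of LOC103693507 was under the limit of the selection and only MS+EA made it a member. All 3 showed the MS+EA rats above the 6 others, with log2 fold changes against Control of 0.69 (adjusted p = 0.0213), 0.70 (adjusted p = 0.0267) and 0.71 (adjusted p = 0.0228). None of the 3 was called without A1, where adjusted p was 0.104, 0.118 and 0.105.

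LOC103691124 showed the opposite arrangement, with both separated groups alike. Its levels were 24.2, 27.1 and 27.0 CPM in Control, 38.7, 45.3 and 44.4 in MS and 35.8, 50.3 and 40.7 in MS+EA. Control lay below every other rat, while MS and MS+EA overlapped. The log2 fold change against Control was 0.70 in MS+EA (SE 0.121, adjusted p = 0.0112) and 0.71 in MS (SE 0.121, adjusted p = 0.0578), and MS+EA against MS gave -0.019 (SE 0.119).

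The remaining called members named by rule were also higher in MS+EA. LOC103693584, LOC102555795, LOC102554150, LOC103692337 and LOC103691190 had log2 fold changes of MS+EA against Control of 0.65, 0.67, 0.69, 0.73 and 0.85, with adjusted p from 0.0073 to 0.0149. LOC103690534 changed by 1.04 (adjusted p = 0.0229) and LOC102547564 by 0.81 (adjusted p = 0.0234). LOC103691190 was a member only with its higher groups, as given above.

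**Figure D4:**
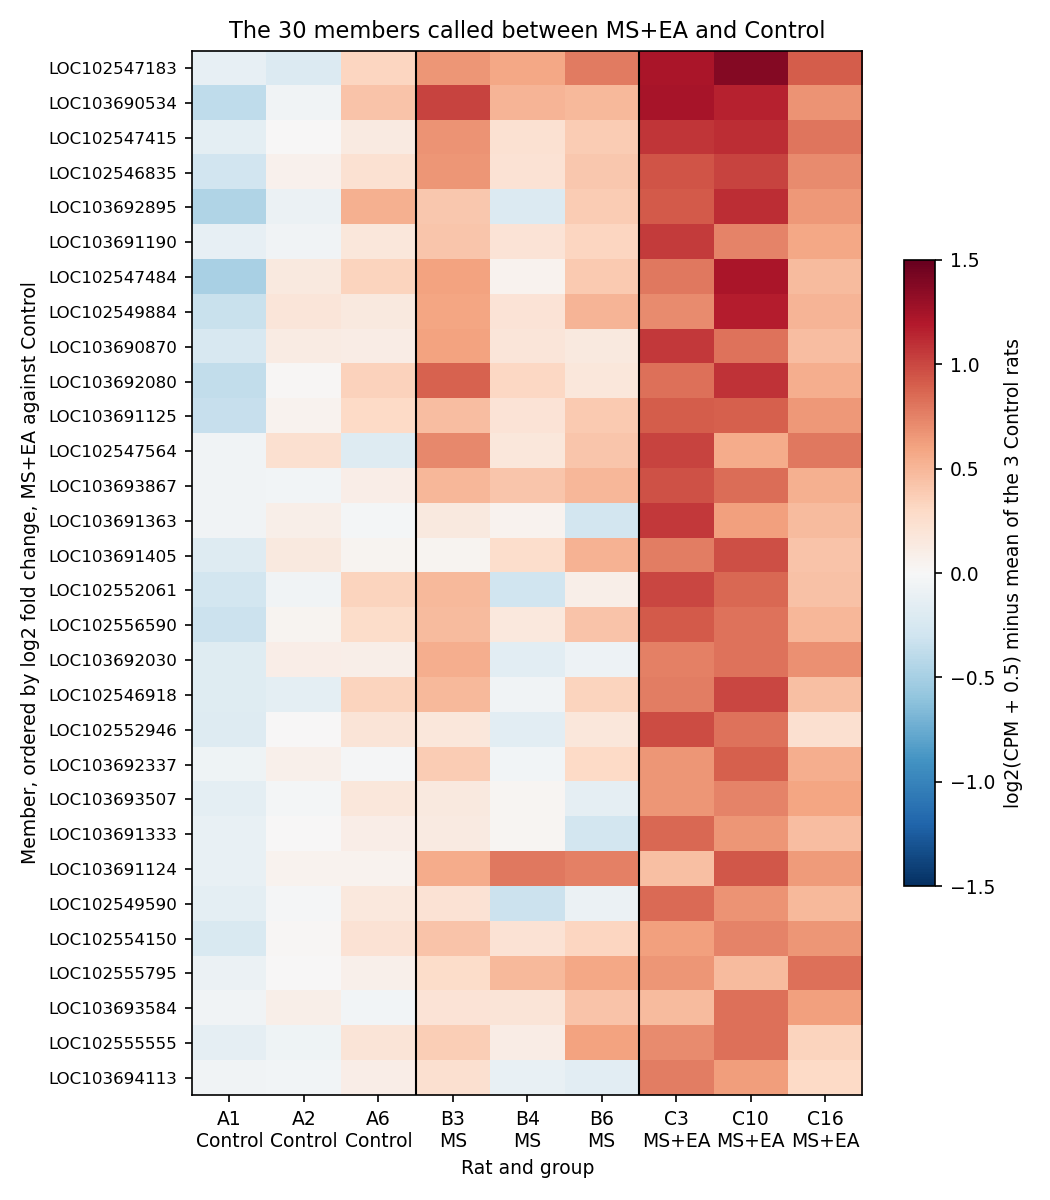
Each row is 1 of the 30 members called between MS+EA and Control and each column 1 rat; colour is log2(CPM + 0.5) minus the mean of the 3 Control rats. The MS+EA columns are redder than the Control columns in every row, A1 is the bluest Control column in 28 rows, and C3 and C10 are mostly redder than C16.

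Of the 30 called members 3 have a start site in RefSeq and so a promoter sequence, and they are shown because they are the only called members whose position can be read in GRCr8. These are LOC102546835 (chr1:125137954-125138253, minus strand, the first of 3 listed starts), LOC102547484 (chr2:154706762-154707061, plus strand) and LOC103690870 (chrX:74534428-74534727, minus strand, the first of 6). LOC102547484 and LOC103690870 were picked for their sequence after their values were seen, and had log2 fold changes of MS+EA against Control of 0.85 (adjusted p = 0.0472) and 0.84 (adjusted p = 0.0310), the latter in a gene whose Control mean was under the selection limit. Each stretch has 300 bases, 250 before the start and 50 from it on, written 5′ to 3′ on the gene's strand, with capitals for the motifs searched on both strands. These were the CCAAT box (letters CCAAT), the GC box (letters GGGCGG), the TATA box (letters TATAAA), the cAMP response element (letters TGACGTCA) and an E-box (letters CACGTG).
LOC102546835: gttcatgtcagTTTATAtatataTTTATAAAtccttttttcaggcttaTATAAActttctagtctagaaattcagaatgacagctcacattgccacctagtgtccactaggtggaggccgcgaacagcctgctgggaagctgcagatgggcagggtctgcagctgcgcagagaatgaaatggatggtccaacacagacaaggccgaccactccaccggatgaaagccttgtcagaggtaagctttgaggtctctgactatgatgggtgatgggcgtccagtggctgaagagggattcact
LOC102547484: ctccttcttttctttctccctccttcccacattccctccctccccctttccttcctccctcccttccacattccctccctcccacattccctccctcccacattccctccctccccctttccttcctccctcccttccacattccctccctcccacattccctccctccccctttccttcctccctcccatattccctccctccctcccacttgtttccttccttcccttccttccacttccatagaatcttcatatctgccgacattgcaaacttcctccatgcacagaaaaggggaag
LOC103690870: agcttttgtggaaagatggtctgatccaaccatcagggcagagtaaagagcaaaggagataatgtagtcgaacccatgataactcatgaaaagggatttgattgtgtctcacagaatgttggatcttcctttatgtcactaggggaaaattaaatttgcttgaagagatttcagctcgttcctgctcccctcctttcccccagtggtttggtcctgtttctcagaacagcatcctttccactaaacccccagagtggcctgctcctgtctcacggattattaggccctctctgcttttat
The first has 4 matches to TATAAA, some overlapping each other, far upstream of the start, and the other two have no match to any of the motifs. Over the promoters of the 58 members with a listed start, CCAAT was present in 25.9% and GGGCGG in 44.8%, and over those of all 27457 listed genes in 37.7% and 34.9%. The shares for TATAAA were 13.8% of members and 14.3% of all, for TGACGTCA 3.45% and 1.91%, and for CACGTG 8.62% and 6.65%. The median GC content was 57.0% in members and 52.3% in all listed genes.

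Oip5-as1 (LOC100910827), also called Cyrano, held 19.7% of all reads on the members. It is a conserved brain-rich lncRNA known for a near-perfect site that directs decay of the microRNA miR-7. Its levels were 1079, 1143 and 1162 CPM in Control, 1341, 1326 and 1505 in MS and 1447, 1730 and 1491 in MS+EA. Every separated rat was above every Control rat, and MS and MS+EA overlapped. The edgeR log2 fold change was 0.46 in MS+EA against Control (SE 0.0815, adjusted p = 0.0114), which is under the fold limit. It was 0.30 in MS against Control (SE 0.0814, adjusted p = 0.186) and 0.16 in MS+EA against MS (SE 0.0813, adjusted p = 0.436). The share of reads on the other 206 members was 0.513% ± 0.0368 in Control, 0.523% ± 0.0372 in MS and 0.622% ± 0.0495 in MS+EA. The promoter of Oip5-as1 (GRCr8 chr3:127031872-127032171, plus strand) is shown because it is the member with the most reads, with capitals as above, and the mature microRNA with its seed, bases 2 to 8, in capitals (RefSeq).
Oip5-as1: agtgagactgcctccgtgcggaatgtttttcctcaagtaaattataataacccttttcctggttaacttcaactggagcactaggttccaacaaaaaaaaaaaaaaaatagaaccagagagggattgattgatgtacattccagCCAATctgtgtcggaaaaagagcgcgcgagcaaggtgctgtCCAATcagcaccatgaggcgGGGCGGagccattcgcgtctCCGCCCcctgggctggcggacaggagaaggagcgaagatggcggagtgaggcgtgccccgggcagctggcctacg
rno-miR-7a-5p: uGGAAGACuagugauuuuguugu
This promoter holds 2 matches to CCAAT and 2 to GGGCGG. MicroRNA levels were not measured in these libraries.

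**Figure D5:**
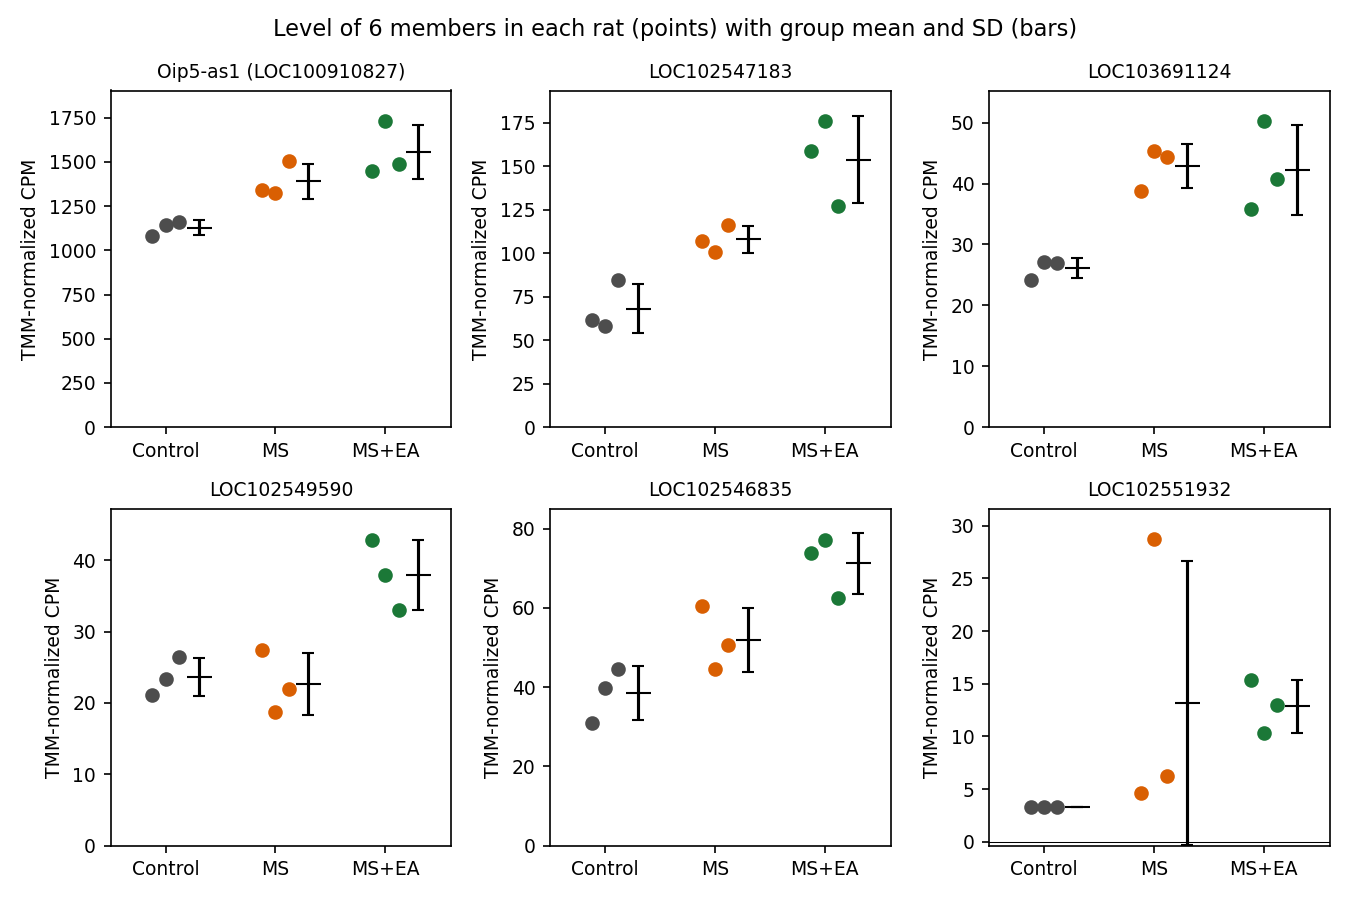
TMM-normalized CPM in each rat (points) with group mean and SD (n = 3) for 6 members, each axis in its own range. Oip5-as1 and LOC103691124 are higher in all 6 separated rats than in Control, LOC102549590 in MS+EA alone, LOC102547183 steps up from group to group, and LOC102551932 has 1 MS rat at 28.7 CPM.

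Miat and Ftx, which have a described nuclear role, passed no adjusted test. Miat, a neuronal RNA held in nuclear speckle-like domains with splicing factors, had 341, 409 and 490 CPM in Control, 439, 317 and 329 in MS and 480, 470 and 422 in MS+EA. Ftx (RGD1564124), a gene of the X-inactivation centre, had 22.4, 26.3 and 29.8 CPM in Control, 27.8, 22.6 and 21.4 in MS and 37.5, 32.6 and 28.8 in MS+EA. For Ftx the MS+EA rats were above all MS rats but overlapped Control, and for Miat no group stood apart. The log2 fold changes of MS+EA against MS were 0.34 for Miat (SE 0.136, adjusted p = 0.342) and 0.46 for Ftx (SE 0.138, adjusted p = 0.245).

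Pantr1 (LOC102547353), transcribed beside the neural transcription factor gene Pou3f3, ranged from 14.0 to 23.3 CPM over the 9 rats. Pvt1 (LOC100910797), a neighbour of Myc, ranged from 9.63 to 12.4 CPM. Both had adjusted p of 0.342 or more in all contrasts.

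Gas5, a host of small nucleolar RNAs whose spliced RNA can bind the glucocorticoid receptor, had 16, 14.9 and 17.3 CPM in Control, 16.4, 12.6 and 14.2 in MS and 24.0, 17.0 and 17.2 in MS+EA. The MS+EA rats lay above the MS rats, but C3 alone was far from the others, and the log2 fold change against MS was 0.43 (SE 0.153, adjusted p = 0.307). Mir9-3hg (LOC102555346), the host of a copy of the neural microRNA miR-9, had overlapping groups and log2 fold changes from -0.20 to 0.25. The mature product of that host gene is given from RefSeq with its seed in capitals.
rno-miR-9a-5p: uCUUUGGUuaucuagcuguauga

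Few members were lower in MS+EA. LOC100911029 had 141, 147 and 148 CPM in Control, 135, 136 and 135 in MS and 112, 125 and 116 in MS+EA, and Fndc4 (LOC100910821) had 39.7, 38.7 and 40.7 in Control, 39.2, 39.6 and 39.4 in MS and 29.9, 32.9 and 33.5 in MS+EA. These were the 2 members lower at an adjusted p under 0.05 with any fold, at a log2 fold change against Control of -0.31 for LOC100911029 (SE 0.0631, adjusted p = 0.0203) and -0.31 for Fndc4 (SE 0.0791, adjusted p = 0.0436). Both had among the 3 lowest spreads between rats of a group, at 0.053 and 0.055 as pooled SD of log2(CPM + 0.5), beside Tmem80 at 0.059. LOC102550180, listed as lncRNA, had 20.4, 22.7 and 23.3 CPM in Control, 25.9, 19.5 and 25.4 in MS and 17.5, 16.6 and 14.1 in MS+EA. Its MS+EA rats were below all others, with a log2 fold change of -0.56 against MS (SE 0.132, adjusted p = 0.197).

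MS against Control gave no called member by edgeR, beside 0.0238% of all genes tested (4 genes). DESeq2 called 2 members beside 67 genes over the whole table, and limma called 0 members. With every gene of at least 1 count kept, edgeR called 6 members beside 207 genes. With only the 6 rats compared it called 1 member beside 11 genes. In the main fit 30 members had an unadjusted p under 0.05. Of these 24 (11.6%) were higher in MS, against 7.06% of all genes, and 6 (2.90%) were lower, against 3.55%. The MS rats lay wholly above Control for 27 members (13.0%; 10% of all genes) and wholly below for 12 (5.80%; 7.53% of all genes), and the median log2 fold change was 0.016, turning to -0.037 without A1 and -0.043 without B3. The smallest p values were those of LOC103691124 and LOC102547183, whose rats are given above. LOC102547183 had a log2 fold change of 0.66 (SE 0.139, adjusted p = 0.110) and LOC102555795 of 0.46 (SE 0.115, adjusted p = 0.164). In the lower direction LOC102548530 had 20.9, 17.0 and 17.6 CPM in Control, 14.99, 11.0 and 14.6 in MS and 19.01, 19.7 and 16.3 in MS+EA. Its MS rats were below all others, at -0.45 against Control (SE 0.142, adjusted p = 0.267). LOC102555352 and LOC102552626 were the other two with the smallest p among lower members, at -0.75 (adjusted p = 0.301) and -0.31 (adjusted p = 0.318).

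MS+EA against MS also gave no called member by edgeR, beside 0.0178% of all genes tested (3 genes). DESeq2 called 6 members beside 30 genes over the whole table, and limma called 0 members. With every gene of at least 1 count kept, edgeR called 8 members beside 72 genes. The unadjusted counts were unequal in direction: 67 members (32.4%) had p under 0.05 and were higher in MS+EA, against 6.01% of all genes, and 6 (2.90%) were lower, against 6.42%. Without B4 the number in both directions fell from 73 to 44, the lowest with 1 rat left out. The number over all genes without B4 was not worked out, so a fall of the members alone cannot be read from this. The MS+EA rats were wholly above the MS rats for 54 members (26.1%; 8.27% of all genes) and wholly below for 6 (2.90%; 9.6% of all genes). The median log2 fold change was 0.22 over members and 0.00059 over all genes, and 163 of 207 members (78.7%) were above 0. The other lncRNA genes had a median of 0.19 and the ncRNA genes of 0.23. The member values include 18 members with an MS mean under 8 CPM and 2 with an MS+EA mean under it, so they are not free of the selection. Both contrasts with MS+EA share the same 3 MS+EA rats, so their counts are not separate evidence. LOC102549590 had the smallest p, with a log2 fold change of 0.74 (SE 0.143, adjusted p = 0.184), followed by LOC103691333 at 0.73 and LOC103693507 at 0.69, both with adjusted p = 0.184. For LOC103693507, a member only through its MS+EA rats, this difference supports nothing. LOC102546798, with 170 to 274 CPM in MS and 319 to 349 in MS+EA, changed by 0.56 (SE 0.137, adjusted p = 0.205).

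The study's own list of differential lncRNAs, drawn from these same counts and so no independent evidence, held 6 members. LOC102547183, LOC103691124, LOC102549590 and LOC103691333 are given above. LOC103693721 and LOC103693402 had log2 fold changes of 0.59 and 0.79 in MS+EA against MS (adjusted p = 0.342 and 0.260), and the Control rats of LOC103693402 overlapped both other groups. Their means over all 9 rats were 8.92 and 8.39 CPM, and their log2 fold changes in MS+EA against Control were 0.53 and 0.51. Both lay close to the limit of 8 CPM and passed it with the help of their higher MS+EA rats, so these differences support nothing.

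Several of the members with most reads showed no difference past an adjusted p of 0.05 in any contrast. LOC102556753 ranged from 161 to 198 CPM over the 9 rats, LOC102549789 from 146 to 174, Nkain2 from 124 to 172 and LOC102548260 from 104 to 125. The highest spreads between rats of a group belonged to LOC103693303, LOC102551932 and LOC102549498, at a pooled SD of 0.98, 0.80 and 0.64. LOC102551932 had 3.32, 3.35 and 3.30 CPM in Control, 4.61, 28.7 and 6.25 in MS and 15.3, 10.3 and 13.0 in MS+EA. The gene passed the selection only through the separated groups, since its Control rats are far under 8 CPM, so that a difference was given by the rule. Every separated rat was above Control, but B4 was far above the other MS rats, and the log2 fold changes of 1.98 in MS (SE 0.544, adjusted p = 0.186) and 1.95 in MS+EA (SE 0.548, adjusted p = 0.0571) missed the threshold. B4 was also the rat with the hypothalamic peptide gene Oxt at 258 reads, where the others had 0 to 25, and the part of that in LOC102551932 was not tested. LOC103693303 varied from 2.15 to 21.3 CPM without regard to group.

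Of the 66 members with a GRCr8 entry, 19 overlapped a gene counted as protein coding there. It lay on the opposite strand for 9 and on the same strand for 5, and for the rest no strand relation was given. By their symbols the partners Fdps-ps3 (of LOC103691599) and Mir100hgl (of Vof16) may be a pseudogene and a microRNA host, so their type is uncertain. Whether the counting used strand is not stated, so reads of a member and of the overlapping gene cannot be told apart. The called member LOC102547484 lies on the same strand as Schip1, whose log2 fold change in MS+EA against Control was -0.15 where the member had 0.85. LOC102548530 lies opposite Adprhl1, which had 0.19 in MS against Control where the member had -0.45.

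The RNA of genes for proteins known to bind, retain or degrade nuclear lncRNA was read from a list of 26 symbols. Of these, 25 were in the count table, and all 25 were tested. In MS+EA against Control 2 were called, both higher, beside 1.37% of all genes tested. These were the splicing factor Srsf1, at a log2 fold change of 0.79 (adjusted p = 0.0039), and the exosome nuclease Dis3, at 0.75 (adjusted p = 0.0181). At an unadjusted p under 0.05, 15 were higher and 1 lower, with a median of 0.23, beside 11.9% and 10.6% of all genes tested. The scaffold protein gene Hnrnpu had 0.45 (adjusted p = 0.0101), the helicase gene Ddx5 0.53 (adjusted p = 0.0131) and Hnrnpa2b1 0.45 (adjusted p = 0.0207), all under the fold limit. Hnrnpa1 had 0.37 (adjusted p = 0.0418) and Zfc3h1 0.28 (adjusted p = 0.0477), also under the fold limit by edgeR. The paraspeckle genes Sfpq, Nono and Pspc1 had 0.077, -0.021 and 0.32, the last with an adjusted p of 0.0801. None was called in MS against Control or in MS+EA against MS by edgeR, with 5 higher and 0 lower, and 12 higher and 1 lower, at an unadjusted p under 0.05, and medians of 0.047 and 0.21. Over all genes tested 7.06% were higher and 3.55% lower in the former contrast and 6.01% and 6.42% in the latter.

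The frontal cortex label was set beside marker genes, and no marker of a cortical layer or area was among them. Slc17a7, the transporter of cortical excitatory neurons, had 1532 to 1636 CPM in Control, 1437 to 1498 in MS and 1225 to 1337 in MS+EA, and the groups did not overlap. The 3 choroid plexus genes summed to 1.87 to 2.81 CPM in Control, 1.40 to 10.9 in MS and 1.07 to 2.08 in MS+EA, and the 8 hypothalamic and other subcortical genes to 198 to 209, 201 to 256 and 196 to 224 CPM. Of these, Folr1 and the dopamine transporter gene Slc6a3 stayed under 0.4 CPM in every rat. No gene of the 9 cell-type lists was called in any contrast. Astrocyte markers (6 genes) summed to 2801 to 3406 CPM in Control, 2996 to 3296 in MS and 2588 to 3455 in MS+EA. Oligodendrocyte precursor markers (4 genes) summed to 190 to 220, 195 to 243 and 161 to 224 CPM in the same order. In both lists the groups overlapped. The summed CPM of the 6 neuron markers ran from 5966 to 6096 in Control, 6104 to 6640 in MS and 5096 to 6364 in MS+EA, and that of the 6 oligodendrocyte markers from 2125 to 3241, 1831 to 2907 and 2045 to 4176. The 5 endothelial genes summed to 121 to 137 CPM in Control, 153 to 177 in MS and 131 to 161 in MS+EA, so that MS lay above Control. Microglia markers (6 genes) summed to 224 to 251, 213 to 240 and 185 to 242 CPM, and the 4 blood genes to 93.7 to 198, 221 to 304 and 207 to 303 CPM in Control, MS and MS+EA. The blood genes were higher than Control in both separated groups, with 4 of 4 at an unadjusted p under 0.05 in MS and 3 of 4 in MS+EA. The part of cell make-up or blood in the members' values was not tested.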

How the data were processed

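Total RNA of the frontal cortex was depleted of ribosomal RNA and sequenced by the study's authors, who deposited 1 table of raw counts per gene for 9 rats with a gene type for each gene. The submitters' processing notes name HISAT2 2.0.4 and the build Rnor_6.0; the counting program and its strand setting are not given in the sources used here. CPM values are TMM-normalized unless a sentence says otherwise, and the selection used plain CPM. Total counts ran from 12479905 to 19007907 per rat.

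Counts were fitted with edgeR 4.0.16 (filterByExpr, TMM, quasi-likelihood F test, 1 mean per group, all 9 rats), with Benjamini-Hochberg adjustment over 16837 genes. Calls needed a fold change above 1.5 and an adjusted p under 0.05, the thresholds of the study, whose EBSeq algorithm was not run. The biological coefficient of variation was 12.7%. The scripts were tested on simulated counts. DESeq2 1.42.0, limma 3.58.1, other normalizations and filters, the 6 rats compared, other selection limits and each rat left out were tried as alternatives. A log2 scale with a pseudocount of 0.5 CPM served for the spread and the figures.

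Members and gene lists were chosen with earlier results of these data known. The text names up to 15 called members, the 3 with the smallest p per contrast and direction, the 8 with most reads, members of known lncRNA classes, members on the study's list, those at the selection limit and those of extreme spread. Promoters and microRNAs are from RefSeq (GRCr8); no other coordinates are given, since the counts use Rnor_6.0.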

Additional observations from a re-analysis of the deposited data

How the results depend on the processing

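Leaving out 1 rat at a time, the members called in MS+EA against Control numbered 6 to 33, in MS against Control 0 to 1 and in MS+EA against MS 0. The genes called over the whole table numbered 71 to 304, 2 to 22 and 1 to 4 in the same order. Without A1, 6 of the 30 called members remained, and without C10 9 did. The 79 members at a mean of at least 20 CPM held 14 calls in MS+EA against Control, beside 1.37% of all genes tested. With DESeq2, 2 members were called in MS against Control and 6 in MS+EA against MS, and 67 and 30 genes over the whole table. Keeping every gene with at least 1 count in any rat gave 6 and 8 members, and 207, 72 and, in MS+EA against Control, 469 genes. With the 6 rats compared, MS against Control had 1 member and 11 genes, and MS+EA against MS 1 gene. Bias-adjusted deviances left 1 gene in MS+EA against MS, and requiring at least 10 counts in every rat left 0 by edgeR, with 1951 at an unadjusted p under 0.05. Without the fold limit 910 genes were called in MS+EA against Control. The cause of these differences was not tested. The other counts of calls stayed within 1.5 times, the shares of reads within 1 SD with the total without lncRNA genes or the counts on messenger RNA genes as denominator, and the median log2 fold changes of the members within the spread between rats. Of 2142 values of single genes under an alternative, 2009 kept direction and side of the threshold, 40 lost and 41 gained an adjusted p under 0.05, and 52 that had an unadjusted p of 0.05 or more changed sign. No paired analysis was possible because no animal entered more than 1 group and rat numbers pair nothing. The lowest count of a member in any rat was 31, and the effect of depth was not tested.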
